A study of Drosophila melanogaster with 19 samples.

Results

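The proneural regulators Achaete (Ac) and Senseless (Sens) were switched on together in the developing back epidermis of the fruit fly, and the transcripts of that tissue were compared with those of animals that switched on a green fluorescent protein (GFP) instead. The comparison comprised 6 arrays, 3 of Ac+Sens and 3 of GFP, out of 19 arrays in the series, and it was read across all 18769 probe sets. The 6 arrays were taken by their sample titles, and values listed at exactly 0 on Ac+Sens replicate 3 were treated as missing. All groups carried sca-Gal4, which drives the transgenes in the pattern of the scabrous gene, and tub-Gal80ts, a temperature-sensitive block on Gal4. The GFP animals carried UAS-GFPnls in addition, and the Ac+Sens animals carried UAS-Ac and UAS-Sens. Crosses were kept at 18 °C and shifted to 29 °C only 6 h ahead of the dissection, so that the factors were present briefly. Each array held RNA from 8 to 12 notums (the dorsal thorax) dissected at 16 h after puparium formation, with 500 ng of total RNA labelled. The labels call the 3 arrays of a group biological replicates, and each array averages the animals of its pool and all cell types of the notum, with or without the driver. The series also holds 2 arrays of Ac alone, 3 of Sens alone, 3 of Asense (Ase), 3 of E(spl)m3-HLH (m3) and 2 of Ase with m3, whose values are given here only beside those of Ac+Sens.

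Sensory bristles of the notum each arise from a single sensory organ precursor. Proneural proteins of the achaete-scute complex are basic helix-loop-helix activators that pair with Daughterless and give a small cluster of epidermal cells the competence to become that precursor. Notch signalling between the cells of the cluster then turns on repressors of the Enhancer of split family and silences the proneural genes in all cells but the precursor, a process called lateral inhibition. Senseless is a zinc finger protein that is switched on in the chosen cell and raises proneural activity there, and the precursor later divides asymmetrically to give the hair, socket, sheath and neuron of the organ.

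Signals were log2 values from the robust multi-array average (RMA), per the submitters' processing notes. A difference of 1 on this scale is a doubling, and levels of different probe sets were not set against each other. On Ac+Sens replicate 3, 11330 probe sets (60.4%) were listed at 0. These were dim probe sets, with a median of 3.31 and at most 5.96 as the mean of the other two Ac+Sens arrays, so that a dim gene has 2 Ac+Sens values here. Pairs of GFP arrays differed by a median of 0.107 to 0.158 per probe set and pairs of Ac+Sens arrays by 0.138 to 0.293, with Ac+Sens replicate 3 in the pairs that differed more. Across genes, the deviation of an array from the median array ran with gene length in opposite directions on Ac+Sens replicate 1 (Spearman's rho 0.48) and replicate 3 (-0.42), and, of these 6 arrays, most strongly on GFP replicate 2 (-0.60). Genes are not independent replicates of such a trend. With the trend taken out of each array, over the 13544 probe sets of genes with a length, 66 of the calls described below were made again. Of the 145 calls, the 6 that name several genes and the 27 that name none could not enter that fit.

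The genes of the transgenes came first. The probe set of sens read 7.55, 7.33 and 7.15 on the GFP arrays and 10.91, 10.62 and 11.36 on the Ac+Sens arrays. The groups did not overlap, and the difference was 3.62 (SE 0.61), a 12.3-fold increase (limma, adjusted p = 0.0086). The probe set of ac did not follow its label. Its values were 7.27, 7.03 and 6.63 with GFP and 6.56, 6.87 and 7.47 with Ac+Sens, the ranges overlapped, and the fitted difference was -0.01 (adjusted p = 0.995), with a sign that turned in 5 of the other settings tried. The 2 Ac arrays, at 6.74 and 6.87, were no higher than GFP either. The probe set of scute (sc), the sister gene and neighbour of ac, was the one that stood high. It read 7.28, 7.04 and 6.95 on the GFP arrays against 10.17, 10.05 and 10.77 on the Ac+Sens arrays, a difference of 3.24 (SE 0.64, adjusted p = 0.0266), and 10.37 and 10.42 on the Ac arrays. Whether the ac probes lie within the transgene is not known from the sources used here, so that the label Ac is kept as a label in what follows.

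The array labelled Sens replicate 1 also went against its label. It read 7.38 for sens and 10.63 for sc, whereas Sens replicates 2 and 3 read 10.76 and 10.75 for sens and 7.17 and 6.84 for sc. It enters the difference between Ac+Sens and GFP only through the shared estimate of the spread. Without it, the adjusted p of sens became 1.79e-07 and that of sc 2.18e-07 with the same differences. Comparisons with Sens below are followed by their value without that array.

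In all, 145 of 18769 probe sets (0.773%) differed between Ac+Sens and GFP at an adjusted p under 0.05 (limma with Benjamini-Hochberg adjustment over all probe sets), 95 of them higher with Ac+Sens (0.506%) and 50 lower (0.266%). Of these, 112 named 1 gene, 6 named several and 27 named none, which left 71 genes higher and 40 lower. Without the array labelled Sens replicate 1 the count was 136, of which 120 were among the 145. Fitting the 6 arrays on their own gave 31, of which 28 were among the 145. With the brightest probe set standing for each gene, 99 of 11982 genes (0.826%) were called, 64 higher (0.534%) and 35 lower (0.292%), and the median difference over all genes was 0.00. Arrays of the groups did not overlap in 5032 probe sets (26.8%), so that separation alone is common in these data. Only 2 Ac+Sens values stood behind 39 of the 95 increases and 22 of the 50 decreases, and the called share was 1.13% of the 7439 probe sets with 3 Ac+Sens values and 0.538% of the 11330 with 2.

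**Figure D1:**
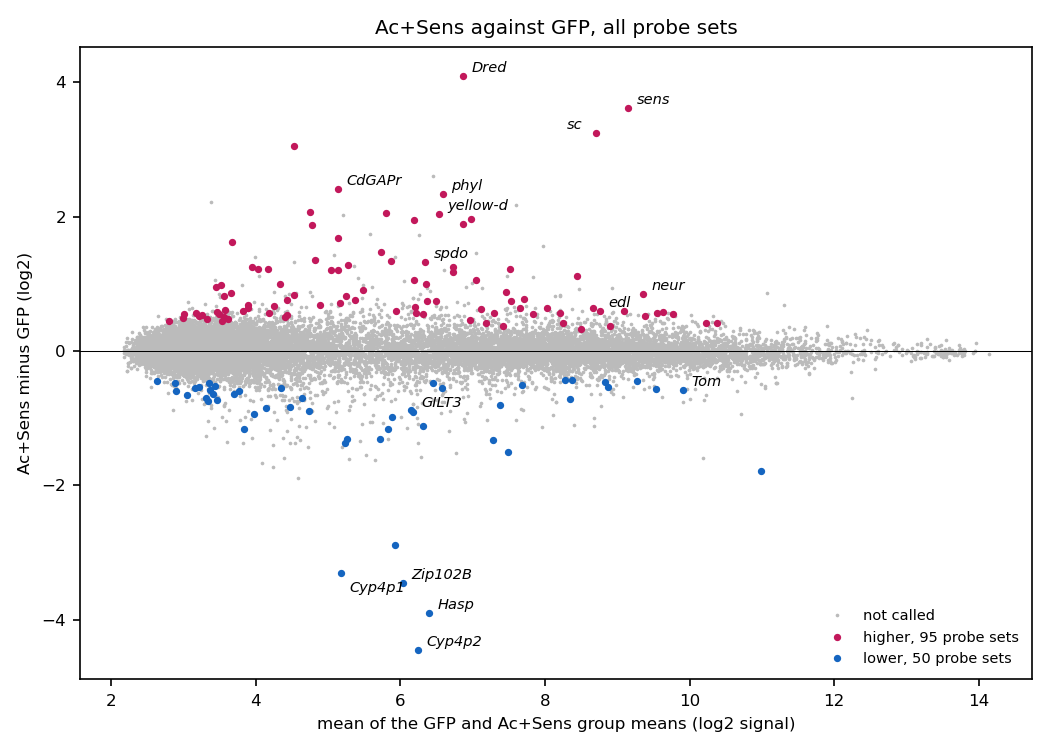
Difference between Ac+Sens and GFP (log2, vertical) against the mean of both group means (log2 signal, horizontal), with 1 point per probe set. The 95 higher (magenta) and 50 lower (blue) probe sets passed limma at an adjusted p under 0.05, and the farthest named points are Dred and sens above and Cyp4p2 and Hasp below.

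Genes of the sensory organ precursor were among the increases. Of 36 measured genes on a list of precursor genes, each read by its brightest probe set, 8 were called higher and 0 lower (22.2% of the list, against 0.826% of all genes), namely sens, sc, phyl, spdo, meru, insb, neur and edl. At an unadjusted p under 0.05, 15 were higher and 0 lower, against 853 higher and 601 lower among all genes, and the median difference of the list was 0.18 against 0.00 over all genes. In pooled tissue, more precursor cells and more RNA per precursor cannot be told apart. The list was drawn up with earlier results of these data known, so its share is not an independent test. Since sens and perhaps sc report the transgenes and yet count in that share, the other 6 genes are described one by one.

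The largest of these increases was in phyllopod (phyl), an adaptor that brings the repressor Tramtrack to degradation and so permits neural fate. It read 5.81, 5.21 and 5.25 with GFP and 7.72, 7.71 and 7.83 with Ac+Sens, a 5.02-fold increase (2.33, SE 0.21, adjusted p = 2.22e-05). The 3 Ac+Sens arrays lay within a narrow band, well clear of all GFP arrays. None of the other 3 measured members of the Tramtrack degradation list was called: sina, sinah and ebi differed by 0.18, 0.19 and 0.19. Ac alone gave phyl levels of 6.82 and 6.74, and the arrays labelled Sens gave 6.98, 6.70 and 6.39. Those single-factor levels were above every GFP array and below every Ac+Sens array, but the differences from Ac+Sens (0.98 and 1.06) did not pass the test (adjusted p = 0.117 and 0.139). Without the array labelled Sens replicate 1 the difference from Sens was 1.20 (adjusted p = 0.125).

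Sanpodo (spdo), a membrane protein that acts with Notch in the asymmetric division of the precursor, went from 5.76, 5.64 and 5.64 to 7.08, 6.92 and 7.03. The increase was 1.33 (SE 0.12, adjusted p = 1.18e-05), with less than 0.2 between the highest and lowest array of either group. It was also above both single factors. Ac arrays read 6.22 and 6.03 and arrays labelled Sens 6.21, 6.22 and 5.83, and Ac+Sens exceeded Ac by 0.88 (adjusted p = 0.0169) and Sens by 0.92 (adjusted p = 0.0031). Without the array labelled Sens replicate 1, the excess over Sens was 0.98 (adjusted p = 0.00497).

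Meru (meru), which is needed for polarity in the dividing precursor, read 7.17, 6.92 and 6.64 with GFP and 8.03, 7.92 and 8.43 with Ac+Sens (1.21, SE 0.19, adjusted p = 0.00633). Insensible (insb), a nuclear inhibitor of Notch target transcription, read 4.76, 4.36 and 4.49 against 5.66, 5.46 and 6.12 (1.21, SE 0.19, adjusted p = 0.00996). In both genes the third Ac+Sens array was the highest, and no array of one group reached the other. Ac alone left both within or close to the GFP range, at 6.96 and 6.90 for meru and 4.36 and 4.94 for insb. The excess of Ac+Sens over Ac was 1.19 for meru and 1.10 for insb, short of the threshold (adjusted p = 0.0526 and 0.0748). In the fit without the array labelled Sens replicate 1, meru passed against Ac (adjusted p = 0.0222) and insb did not (adjusted p = 0.0825). The differences from Sens were smaller, 0.76 for meru (adjusted p = 0.275) and 0.93 for insb (adjusted p = 0.26). Without the array labelled Sens replicate 1 they were 0.59 and 1.05.

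Neuralized (neur), the ubiquitin ligase through which the precursor activates Delta, read 8.94, 8.86 and 9.01 with GFP and 9.93, 9.58 and 9.84 with Ac+Sens (0.85, SE 0.15, adjusted p = 0.0144). ETS-domain lacking (edl), an antagonist of the ETS factors downstream of EGFR, read 8.51, 8.47 and 8.39 against 8.98, 9.21 and 8.97 (0.59, SE 0.08, adjusted p = 0.00236). These changes were small in fold, 1.80 and 1.51, and the arrays of the groups did not overlap. Leaving out the first or the second GFP array, or the first Ac+Sens array, ended the call on neur, whose adjusted p reached at most 0.0915, and leaving out GFP replicate 2 ended that on insb. With the 6 arrays fitted on their own, sens, sc, phyl and spdo were still called, and meru, insb, neur and edl were not. Leaving out any one of the 6 arrays ended the call on sc as long as the array labelled Sens replicate 1 stayed in the fit.

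**Figure D2:**
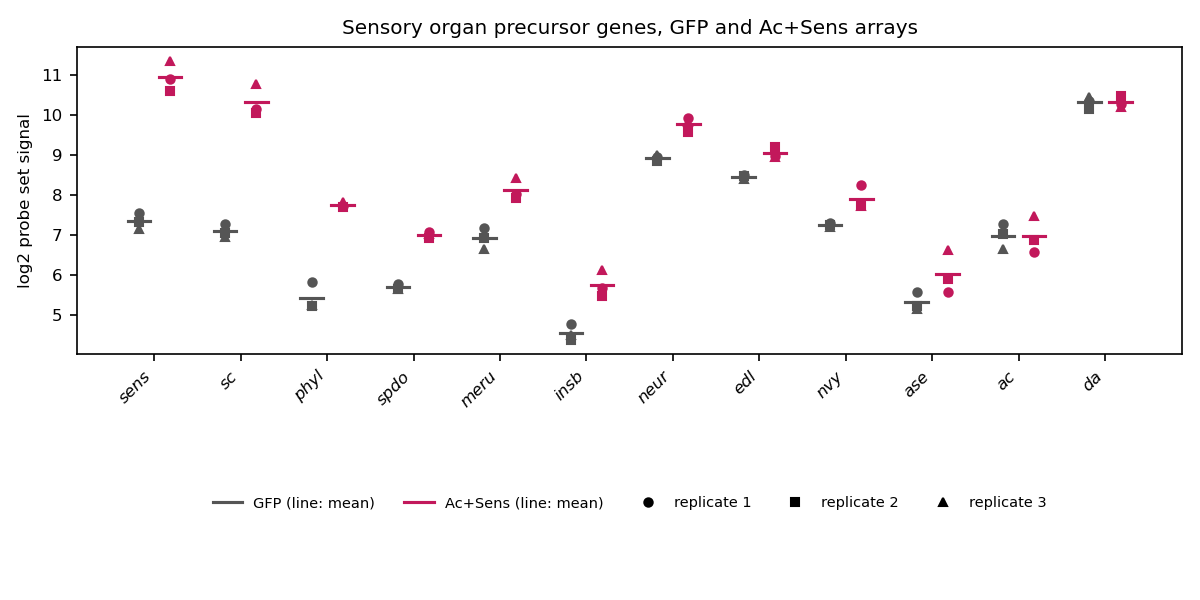
Signal (log2, vertical) of 12 precursor and proneural genes on each GFP (grey) and Ac+Sens (magenta) array, with the replicate given by the symbol and the group mean by a line. The first 8 genes were called, and in each of these all Ac+Sens arrays lie above all GFP arrays, while ac and da overlap.

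Other genes of the list did not pass. Asense (ase), the bHLH gene that marks the precursor after its selection, read 5.58, 5.23 and 5.15 with GFP and 5.56, 5.89 and 6.62 with Ac+Sens (0.70, adjusted p = 0.244), so that 1 Ac+Sens array lay within the GFP range. Nervy (nvy) read 7.29, 7.26 and 7.21 against 8.24, 7.74 and 7.73, without overlap (0.65, adjusted p = 0.36). Differences of Rgl, cato, pon and Traf4 were 0.51, 0.50, 0.31 and 0.32, with adjusted p from 0.0696 (Rgl) to 0.297 (pon). The probe sets of schizo (siz) disagreed. The brighter one differed by 0.38 (adjusted p = 0.177) and a dim one fell by 0.47 and was called, but no longer once the array labelled Sens replicate 1 was left out. The proneural partner daughterless (da) differed by 0.00 (adjusted p = 0.997), and none of l(1)sc, ato and amos was called, with differences of 0.17, -0.03 and 0.02.

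Targets of Notch in the Enhancer of split and Bearded complexes did not move as a block. None of 10 measured genes at the Enhancer of split complex was called at an adjusted p under 0.05, 2 were higher at an unadjusted p under 0.05, and the median difference was 0.14. Those 2, E(spl)m4-BFM and E(spl)m5-HLH, fall outside the rule for named genes and are given because of their values. E(spl)m4-BFM, a Bearded family gene, read 6.83, 6.39 and 6.31 with GFP and 8.15, 8.04 and 9.87 with Ac+Sens (2.18, SE 0.55, adjusted p = 0.0895). The repressor gene E(spl)m5-HLH read 4.34, 4.08 and 4.16 against 5.64, 5.60 and 7.39 (2.02, SE 0.48, adjusted p = 0.0734). All Ac+Sens arrays lay above all GFP arrays in both genes, and Ac+Sens replicate 3 stood apart from its group. Without the array labelled Sens replicate 1, which read 8.47 and 6.48 for these genes against 6.78 and 6.46, and 4.79 and 4.50, on the other Sens arrays, both passed (adjusted p = 0.0494 and 0.0205). Without Ac+Sens replicate 3, with the array labelled Sens replicate 1 in the fit, the differences were 1.59 and 1.43 (adjusted p = 0.20 and 0.153). The Ac arrays read 8.05 and 7.54 for E(spl)m4-BFM and 5.73 and 5.40 for E(spl)m5-HLH, and the Ase arrays 8.19 to 8.72 and 6.03 to 6.56.

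The remaining 8 genes of the complex differed by -0.07 (E(spl)m6-BFM) to 0.29 (Kaz-m1). E(spl)m3-HLH, which is itself over-expressed in other groups of the series, read 11.08, 11.03 and 11.03 with GFP and 11.29, 11.21 and 11.12 with Ac+Sens (0.16, adjusted p = 0.546).

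Bearded complex genes encode small proteins that bind Neuralized and restrain it. One of 4 measured members, Twin of m4 (Tom), was called, and it was lower, at 10.35, 10.06 and 10.18 with GFP and 9.49, 9.65 and 9.72 with Ac+Sens. It fell by 0.58 (SE 0.11, adjusted p = 0.0222), a call that was lost in 6 of the other settings, with adjusted p up to 0.156. Ocho read 7.30, 7.20 and 6.89 against 6.26, 6.30 and 6.17, a difference of -0.89 (adjusted p = 0.0634) that passed without the array labelled Sens replicate 1 (adjusted p = 0.00395). Brd read 8.65, 7.69 and 7.63 against 6.85, 6.61 and 8.71, so that 2 Ac+Sens arrays lay below all GFP arrays and the third above them (-0.60, adjusted p = 0.651). BobA differed by 0.17 (adjusted p = 0.635). In the broader list of 22 Notch pathway genes, spdo and neur were called higher and none lower (9.09%, against 0.826% of all genes). Both are calls already counted among the precursor genes, so they are no separate reading of the Notch pathway. The channel-like gene big brain (bib) read 7.84, 7.80 and 8.06 against 8.80, 8.31 and 8.41 (0.61, adjusted p = 0.0884).

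**Figure D3:**
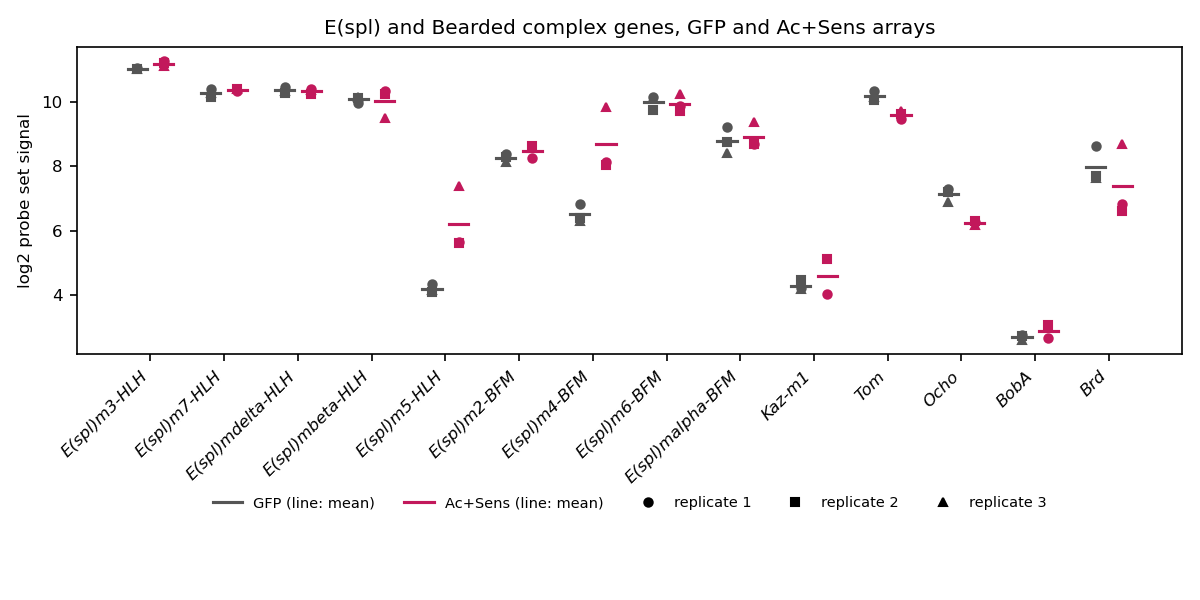
Signal (log2, vertical) of 10 Enhancer of split complex genes and 4 Bearded complex genes on each GFP (grey) and Ac+Sens (magenta) array, with lines at group means. E(spl)m5-HLH and E(spl)m4-BFM lie higher on all Ac+Sens arrays with replicate 3 apart, Tom and Ocho lie lower on all of them, and the other genes overlap or nearly touch.

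Beyond the precursor genes, the increases included 2 genes of the yellow family. The gene yellow-d, which encodes a relative of the secreted pigmentation protein Yellow, read 5.58, 5.49 and 5.48 with GFP and 7.56, 7.29 and 7.81 with Ac+Sens, a 4.11-fold increase (2.04, SE 0.12, adjusted p = 1.83e-07). It was 6.14 and 6.00 with Ac and 6.12, 6.32 and 5.99 on the arrays labelled Sens. Ac+Sens thus exceeded Ac by 1.49 (adjusted p = 0.000152) and Sens by 1.41 (adjusted p = 7.02e-05, and 0.000734 without the array labelled Sens replicate 1). The family's founding gene yellow (y), needed for dark cuticle pigment, was dim at 3.05, 3.12 and 2.93 against 3.95 and 4.08, with the third Ac+Sens value listed at 0 (0.98, SE 0.11, adjusted p = 0.00136). These were the 2 of 13 measured yellow family genes that were called, both higher (15.4%, against 0.826% of all genes). The gene y also stood on the list of transgene and driver background genes, as the 1 call of 3 measured there (33.3%). The part of line genotype in the level of y was not tested. Tan (t), an enzyme of cuticle pigment synthesis, read 4.20, 4.71 and 4.18 against 5.96 and 5.63 (1.43, adjusted p = 0.0722), and 0 of 8 genes on the pigment and tanning list was called.

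Dusky (dy), a zona pellucida domain protein of the apical surface of wing and bristle cells, read 5.27, 4.48 and 5.25 with GFP and 6.49, 6.32 and 6.61 with Ac+Sens (1.48, SE 0.22, adjusted p = 0.00681). It was the 1 call among 15 genes of its domain family and among 33 genes of bristle, hair and trichome cytoskeleton. Ac arrays, at 5.35 and 4.69, lay in or next to the GFP range, and the excess of Ac+Sens over Ac was 1.46 (adjusted p = 0.0526, and 0.047 without the array labelled Sens replicate 1 in the fit). The difference from Sens was smaller, 0.83 (adjusted p = 0.388), and 0.76 without that array. Among 106 cuticle protein genes, 1 was called (0.943%, against 0.826% of all genes). That gene, Lcp65Ag3, read 5.20, 5.49 and 4.96 against 6.46, 7.34 and 7.69 (1.95, SE 0.37, adjusted p = 0.0204), and since it belongs to a cluster of near-identical copies the signal may be shared. Its call was lost in 6 of 19 other settings, with adjusted p up to 0.0907. Osi9, of the Osiris family, was 3.45, 3.73 and 3.51 against 4.81 and 4.76 (1.22, adjusted p = 0.0218) and was the 1 call among 24 Osiris genes, lost in 6 of 17 other settings with adjusted p up to 0.14. Ac+Sens differed from Ac by -0.27 in Lcp65Ag3 and -0.19 in Osi9. From Sens it differed by 0.33 and 1.27, and by 0.79 and 1.27 without the array labelled Sens replicate 1.

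Achintya (achi), a homeodomain factor of the TGIF class, read 4.53, 4.55 and 4.82 with GFP and 5.96 and 5.87 with Ac+Sens (1.28, SE 0.13, adjusted p = 0.000733). Its neighbour and close copy vismay (vis) took another course. It read 3.15, 2.98 and 2.89 with GFP, 2.59 and 2.49 with Ac+Sens (-0.47, adjusted p = 0.0644), and 4.96 and 4.85 on the Ac arrays. Ac+Sens was thus above Ac in achi by 1.33 (adjusted p = 0.00462) and below it in vis (-2.37, adjusted p = 1.74e-06). Because the genes are alike in sequence, probes of one may read the other. Among 16 bristle cell fate factors, achi was the 1 called. Its increase was not particular to Ac+Sens. Levels of achi above every GFP array were also read on the measured arrays labelled Sens (5.36 and 5.43) and with Ase (5.70 and 5.86). The same held for m3 (5.42 and 5.48) and Ase+m3 (5.65 and 5.84), but not for Ac (4.77 and 4.39). Ac+Sens exceeded Sens in achi by 0.52 (adjusted p = 0.356), and by 0.49 where only Sens replicate 2 remained.

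Genes of unknown or less certain role were among the largest increases. Dred read 4.80, 4.58 and 5.08 with GFP and 8.80, 9.30 and 8.64 with Ac+Sens, a 17.1-fold increase (4.10, SE 0.19, adjusted p = 3.78e-08). It was as high with Ac (9.33 and 9.43) and on the arrays labelled Sens (9.31, 9.32 and 9.15), and between 4.38 and 5.37 in all other groups. A probe set of unc-13-4A, named here after its values were seen, had the same arrangement, with 3.03, 2.86 and 3.12 for GFP, 6.00, 6.94 and 5.22 for Ac+Sens, 6.43 and 6.56 for Ac, and 6.46, 6.62 and 6.41 on the arrays labelled Sens (3.05 against GFP). A further probe set of unc-13-4A was also called higher (0.81, adjusted p = 0.0077). There Ac+Sens exceeded Ac by 0.12 and Sens by 0.03, and Sens by 0.08 without the array labelled Sens replicate 1. The brightest probe set of unc-13-4A differed by 0.18 and was not called. CdGAPr, a GTPase-activating protein gene, read 3.91, 3.70 and 4.18 with GFP and 6.41, 6.28 and 6.32 with Ac+Sens (2.40, SE 0.43, adjusted p = 0.0169, and 2.66e-06 without the array labelled Sens replicate 1). The array labelled Sens replicate 1 read 3.74 here, near the Ac arrays at 4.20 and 3.87, while Sens replicates 2 and 3 read 5.96 and 6.08.

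CG15740 read 4.24, 4.48 and 4.18 with GFP and 6.16, 5.75 and 6.01 with Ac+Sens (1.67, SE 0.17, adjusted p = 0.000456). It was 4.34 and 5.14 with Ac and 4.38 and 4.40 on the arrays labelled Sens that measured it. The excess over Ac was 1.23 (adjusted p = 0.0436) and that over Sens 1.58 (adjusted p = 0.00808), the latter 1.58 with an adjusted p of 0.0718 when the array labelled Sens replicate 1 was left out and a single Sens value remained. CG13062 rose from 5.96, 6.26 and 6.14 to 7.02, 6.88 and 6.71 (0.75, adjusted p = 0.00721) and exceeded Ac by 0.80 (adjusted p = 0.0436) and Sens by 0.85 (adjusted p = 0.0115, and 0.00931 without that array). Others of the 15 largest increases were Ir76a, an ionotropic receptor gene (2.06), Drsl6, a drosomycin-like gene (1.35), and mthl8, a methuselah-like receptor gene (1.25). Ac+Sens differed from Ac by only -0.14 in Ir76a and 0.00 in Drsl6. From Sens it differed by 0.10 and 1.67, and by 0.14 and 1.63 without the array labelled Sens replicate 1. For mthl8 the Ac+Sens arrays read 7.12, 7.27 and 7.69 against 6.40, 6.07 and 5.86 with GFP, and the Ac arrays 7.36 and 7.09. A dimmer probe set of mthl8 differed by 0.79 and was not called (adjusted p = 0.466).

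A few of the decreases were large, and the largest, in Cyp4p2 and Hasp, are described further below. Zip102B, a zinc transporter gene on chromosome 4, read 7.81, 7.69 and 7.81 with GFP and 4.29, 4.59 and 4.07 with Ac+Sens (-3.45, SE 0.25, adjusted p = 1.43e-06). It stood at 6.97 and 6.67 with Ac, at 6.60, 7.91 and 7.93 on the arrays labelled Sens, at 4.09, 4.16 and 4.04 with Ase, and at 7.68 to 8.10 in the m3 and Ase+m3 groups. Ac+Sens was below Ac (a difference of -2.51, adjusted p = 0.00115) and below Sens (-3.16, adjusted p = 3.04e-05, and -3.60 with an adjusted p of 2.98e-09 without the array labelled Sens replicate 1). No other of 17 zinc transporter genes was called. The only other call on chromosome 4 was fuss, a Ski/Sno family gene, at 4.26, 4.74 and 4.26 against 3.17 and 3.35 (-1.16, adjusted p = 0.0154). These were 2 of 65 genes measured there (3.08%), while the larger arms held between 0.481% and 0.998%.

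The sodium/proton antiporter gene Nha1 was lower with Ac+Sens, at 3.74, 3.86 and 3.87 against 3.17 and 3.03 (-0.72, adjusted p = 0.00633). It was also below Ac (-0.78, adjusted p = 0.0311) and Sens (-0.76, adjusted p = 0.0379), the last of which no longer passed once the array labelled Sens replicate 1 was left out (adjusted p = 0.128). Nepl8, of the neprilysin-like proteases, read 4.67, 4.62 and 4.42 against 3.76 and 3.69 (-0.85, adjusted p = 0.00633) and was the 1 call among 26 neprilysin genes. GILT3, a thiol reductase family gene, went from 6.70, 6.61 and 6.56 to 5.56, 5.87 and 5.75 (-0.90, SE 0.10, adjusted p = 0.000179). Its level was 6.07 and 5.99 with Ac and 5.75 to 6.04 on the arrays labelled Sens, and 6.54 to 6.88 in the Ase, m3 and Ase+m3 groups. Other large decreases were in CG3699 (-1.51), the peroxiredoxin gene Prx6c (-1.36), danr (-1.30), CG2121 (-0.89) and CG12560 (-0.88), calls that were lost in between 3 (CG2121) and 8 (CG12560) of the other settings. The probe set named for the antisense RNA asRNA:Eig63F-2 differed by -1.17, a call lost in 7 of 19 other settings. Tektin-A, a ciliary filament gene, was the 1 call among 34 genes of sensory cilium and mechanosensation, and it was lower by a small amount (-0.48, adjusted p = 0.0244). That call was lost in 9 of 17 other settings, with adjusted p up to 0.257.

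In some called genes the GFP arrays stood apart from all other groups. In 39 of the 145 called probe sets, every measured array of the 13 other over-expression arrays lay beyond the GFP range on the same side as Ac+Sens, an arrangement found in 197 of all 18769 probe sets (1.05%). The calls and the GFP range rest on the same GFP arrays, so the share among the calls is not an independent result. The cytochrome P450 gene Cyp4p2 read 8.43, 8.50 and 8.46 on the GFP arrays, 4.06, 4.07 and 3.90 on the Ac+Sens arrays (-4.45, SE 0.12, adjusted p = 2e-12) and 3.57 to 4.15 on all others. Its neighbour Cyp4p1 read 6.72, 6.97 and 6.80 against 3.71, 3.44 and 3.43 (-3.30), with 3.15 to 3.89 elsewhere. Hasp read 8.06, 8.50 and 8.46 against 4.46, 4.48 and 4.40 (-3.89), with 3.94 to 4.82 elsewhere. Smaller differences with the same arrangement were in CG10184 (-1.12), in acetyl-CoA synthetase AcCoAS (-1.31), in the ubiquitin ligase gene goliath (gol, 1.12) and in the adenosine deaminase gene Adgf-A (0.88). With 1 control line, a difference of the GFP line itself and a change shared by all transgenes cannot be told apart in these genes. Of 83 cytochrome P450 genes, 4 were called (4.82%, against 0.826% of all genes), with Cyp4p1, Cyp4p2 and Cyp6d2 lower and Cyp4e2 higher. The call on Cyp6d2 (-0.70, adjusted p = 0.0337) was lost in 11 of 17 other settings, among them the fit without the array labelled Sens replicate 1 (adjusted p = 0.0538), and that on Cyp4e2 (0.78, adjusted p = 0.0403) in 9 of 19.

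**Figure D4:**
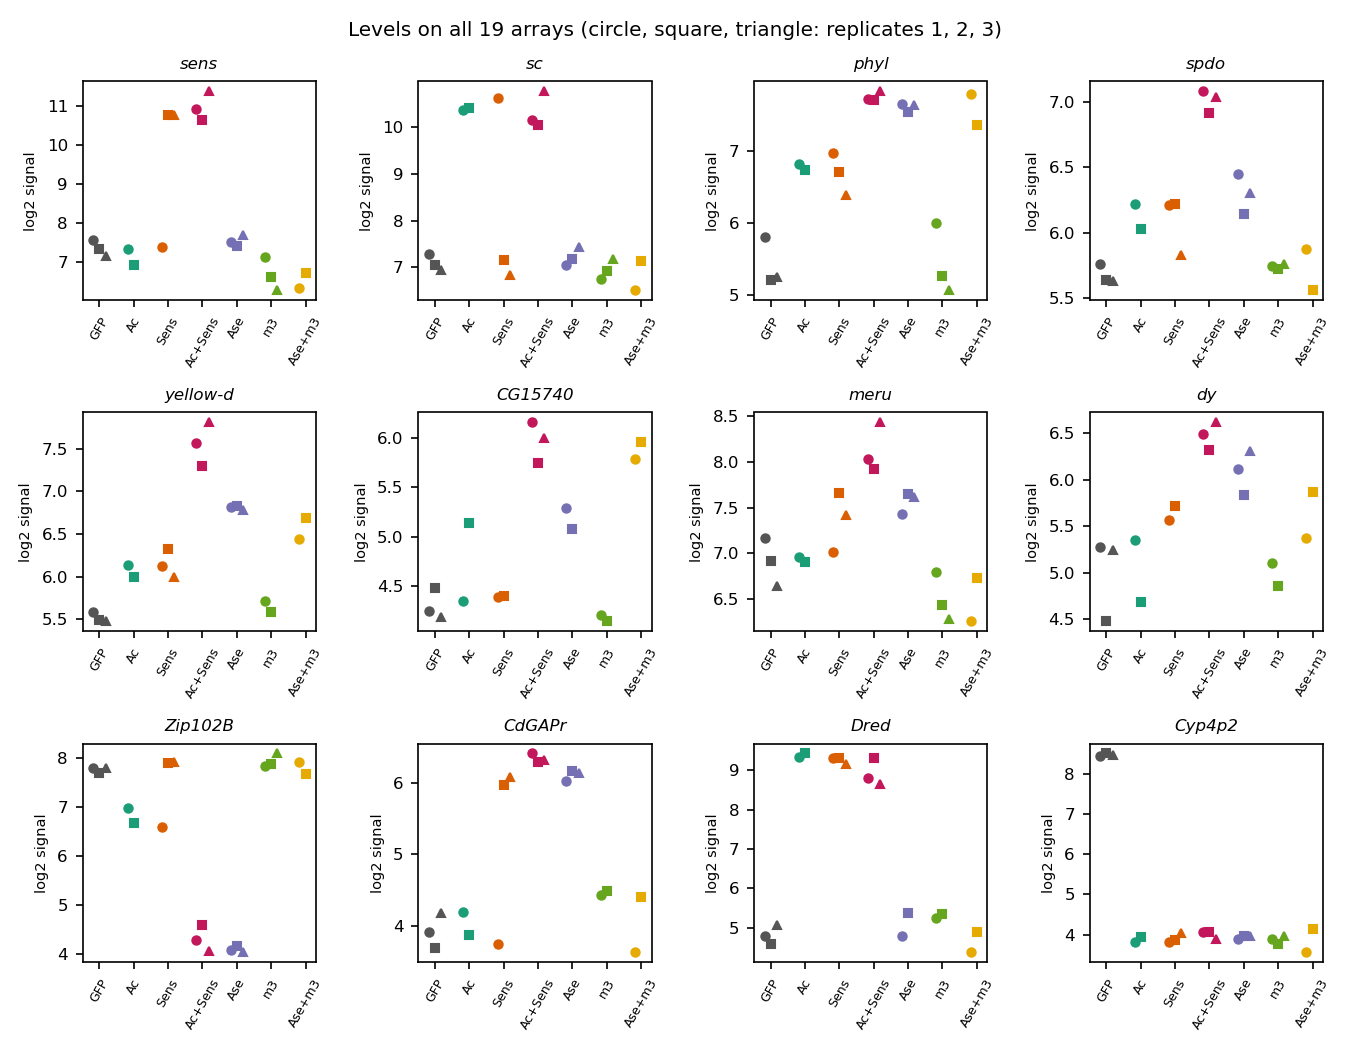
Signal (log2, vertical, with its own scale in each panel) of 12 genes on all 19 arrays by group. Levels of spdo, yellow-d and CG15740 on the Ac+Sens arrays lie above those of Ac and Sens, Dred is high with Ac, Sens and Ac+Sens, Cyp4p2 is low on all arrays but GFP, and the first Sens array lies with Ac for sens, sc, Zip102B and CdGAPr.

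Against the single factors directly, the calls were few. Ac+Sens differed from Ac in 15 probe sets (0.0799%), 9 of them higher (0.048%) and 6 lower (0.032%). It differed from Sens in 10 (0.0533%), 5 higher and 5 lower (0.0266% each). Without the array labelled Sens replicate 1, these counts were 37 and 12. Of the 145 probe sets called against GFP, 10 also passed against Ac and 9 against Sens in the same direction, and 6 passed both tests. The 6 were yellow-d, spdo, CG15740 and CG13062, all higher, and Zip102B and Nha1, both lower. Without the array labelled Sens replicate 1, 15 of the 145 passed against Ac and 8 against Sens, and the 4 that passed both were yellow-d, spdo, CG13062 and Zip102B. These comparisons share the Ac+Sens arrays. With 2 Ac arrays and an array labelled Sens that read as high for sc as the Ac arrays, genes that missed the threshold here are not shown to be alike between the groups.

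Several lists of other processes held no call at an adjusted p under 0.05. No gene was called among 30 of cell cycle and replication, 22 of the notum prepattern, 14 of the Dpp and Wg pathways, 39 of neuronal differentiation, 25 of the ecdysone response, 15 of apoptosis, 29 of antimicrobial and immune function, 16 of heat shock and 41 ribosomal protein genes, with medians between -0.04 (neuronal) and 0.17 (ecdysone response). The median of the ecdysone list was close to that of the precursor genes (0.18). At an unadjusted p under 0.05, 2 cell cycle genes were higher and 0 lower, and 1 prepattern gene higher and 0 lower. Of neuronal genes 1 was higher and 2 lower, of Dpp and Wg genes 3 higher and 1 lower, and of ecdysone genes 5 higher and 1 lower. Among all 11982 genes, 853 were higher and 601 lower. Cyclin E (CycE) read 9.51, 9.32 and 9.76 with GFP and 10.11, 10.04 and 10.03 with Ac+Sens (0.53, adjusted p = 0.15). Ftz-f1 (ftz-f1), a nuclear receptor gene of the ecdysone response, read 8.62, 8.29 and 8.46 against 7.95, 7.88 and 7.40 (-0.71, adjusted p = 0.302), and -0.19 on its dimmer probe set. The groups did not overlap in CycE or in the brighter probe set of ftz-f1, which 26.8% of all probe sets share.

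**Figure D5:**
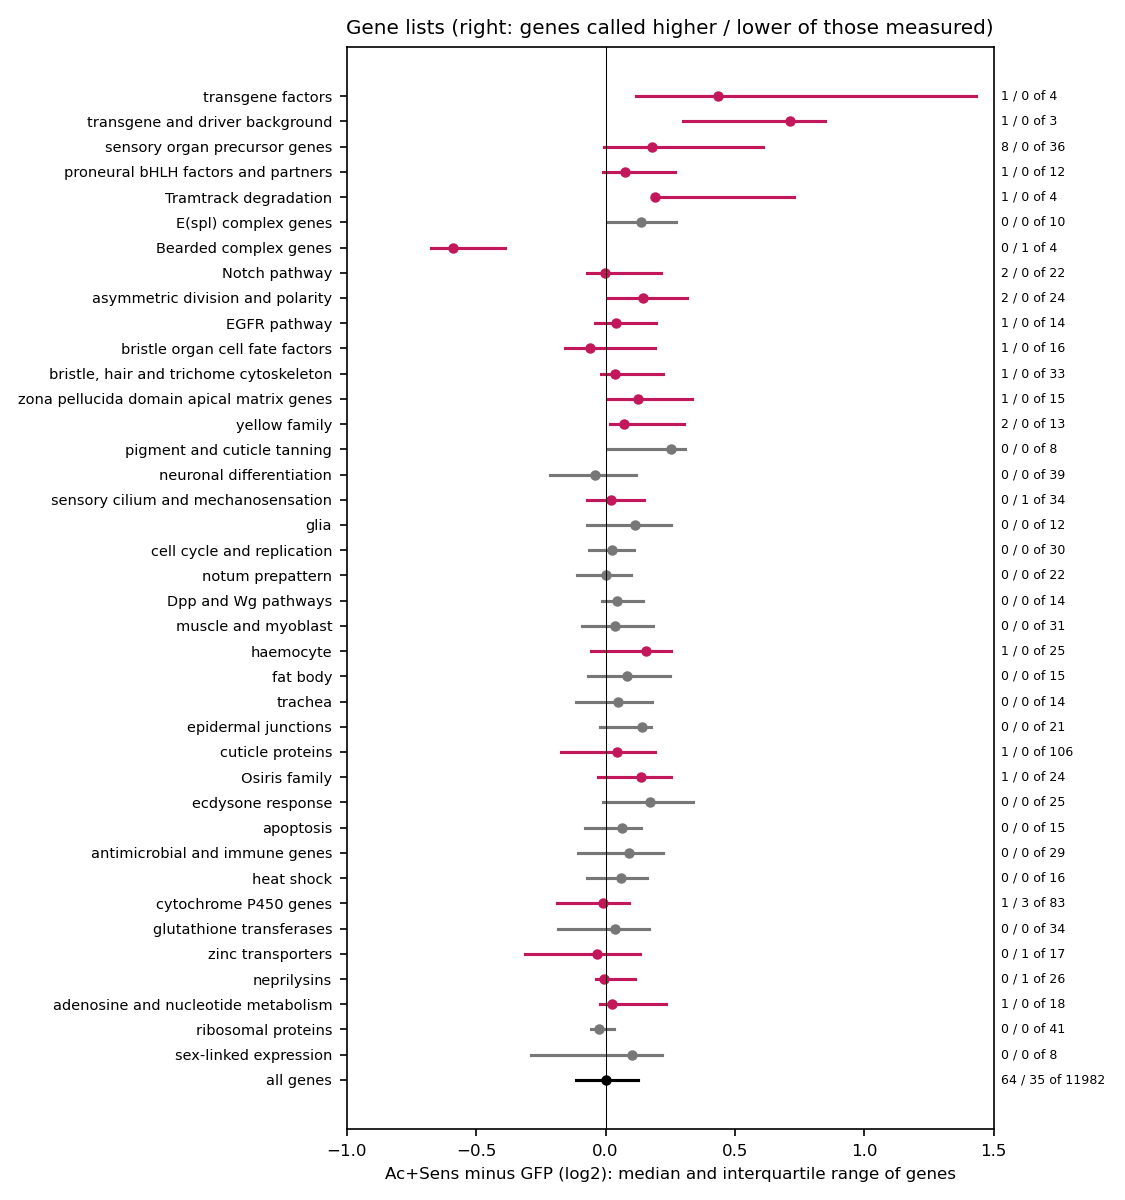
Median (point) and interquartile range (line) of the difference between Ac+Sens and GFP (log2, horizontal) for each of 39 gene lists and for all genes, with the genes called higher and lower of those measured at the right. Lists with a call are in magenta. Precursor genes have 8 calls, all higher, and the Bearded complex is the list whose median lies farthest below 0.

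Markers of the cell types that the dissected notum could hold were read beside these results. All 6 epidermal markers (pnr, shg, ed, Nrx-IV, cora, pck) were measured on every array, none was called, and the log2 of their summed linear signals was 12.25 to 12.47 with GFP and 12.48 to 12.53 with Ac+Sens. Of the 5 precursor markers, 4 were called higher, namely sens, phyl, neur and insb. These are calls already described above, and sens is a gene of the transgenes, so they are no separate reading of the precursors. No marker measured of muscle (3), fat body (2), neurons (3), glia (3) or trachea (1) was called, and the summed fat body level was 11.27 to 11.97 with GFP and 11.19 to 12.64 with Ac+Sens. The neuronal genes nSyb and brp and the tracheal gene btl were listed at 0 on Ac+Sens replicate 3. Among haemocyte (blood cell) markers, the phagocytosis receptor gene NimC1 was called higher, at 5.14, 5.08 and 4.87 with GFP and 5.93, 5.84 and 6.05 with Ac+Sens (0.91, SE 0.13, adjusted p = 0.00721). It was the 1 call among 4 markers and among 25 haemocyte genes. Levels of NimC1 above every GFP array were also read with Ac (5.63 and 5.86), Ase (5.83 and 5.95) and Ase+m3 (5.56 and 5.17). The same held on the measured arrays labelled Sens (5.54 and 5.95). Ac+Sens exceeded Ac by 0.20 and Sens by 0.19, and differed from Sens by -0.01 without the array labelled Sens replicate 1. The summed level of the 3 markers measured on all 6 arrays was 7.80 to 8.04 with GFP and 7.97 to 9.19 with Ac+Sens, while Hml was listed at 0 on Ac+Sens replicate 3. The part of haemocytes in the level of NimC1 was not tested. In the sex-linked list, msl-2 read 7.93 on Ac+Sens replicate 1 and 6.13 and 6.52 on the other two Ac+Sens arrays, against 6.50, 5.73 and 6.45 with GFP, and none of 8 genes was called.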

How the data were processed

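The authors deposited log2 signals per probe set, made with RMA per the submitters' processing notes. Its version and its probe definitions are not known here. GEO's platform annotation gave the names: 13647 of 18769 probe sets name 1 gene, 402 several and 4720 none. The brightest probe set on average, over the arrays that hold no 0, stands for a gene. Zeros were set to missing, so a dim gene can have 2 values in a group.

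The limma package 3.58.1 under R 4.3.3 (lmFit, eBayes) fitted 1 model to all 19 arrays, with 7 group means, so that all arrays share the estimate of the spread. P-values were adjusted by Benjamini-Hochberg over all probe sets and called under 0.05, with no filter on dim probe sets, and the fit was tested on simulated data. The precision is limited by the number of arrays. Detection calls and scan dates were not used here, so background and scan batches were not tested. The gene lists and the comparison were chosen with earlier results of these data known, and 2 list entries that matched a wrong gene (CG9363 and the Notch list's nrt) were taken out after the first run.

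Named genes are those of the transgenes, the 15 largest called increases and the 15 largest decreases without overlap of the arrays, called members of the precursor, Enhancer of split, Bearded, yellow, zona pellucida and Tramtrack lists, up to 4 members of every other list with the smallest p, and genes that differ from GFP in every group. Others are marked as chosen after their values were seen or are given as further members of a list. Same-numbered GFP and Ac+Sens arrays deviated with correlations of 0.13, -0.12 and -0.15. Single arrays also deviate with gene length, so these correlations cannot settle whether same-numbered arrays share a batch. Zeros made up 60.3% to 60.6% of replicate 3 in the Sens, Ase and m3 groups as well, and 0% of GFP replicate 3. No sequences are shown.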

Additional observations from a re-analysis of the deposited data

How the results depend on the processing

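Against GFP, 145 probe sets were called, and 21 of them passed in each of 19 other settings that tested them, among them sens, phyl, spdo, yellow-d, achi, CG15740, Dred, Cyp4p2, Hasp and Zip102B, while no called probe set changed its direction in any. The count was 31 with only the 6 arrays compared, 136 without Sens replicate 1, 261 without either Ase+m3 array alone, 240 without both Sens replicate 1 and Ase+m3 replicate 2 (a setting chosen after seeing the data), 72 for probe sets with no 0, 79 for those with a mean of at least 5, 88 with the gene length trend removed, and 1574 with array weights. Quantile normalization gave 85, of which 76.5% were higher against 65.5% of the 145. Leaving out 1 of the 6 arrays gave 50 (without Ac+Sens replicate 1) to 116 (without Ac+Sens replicate 3), with 67, 64 and 64 after removal of the first GFP array, the second GFP array and the second Ac+Sens array. With a replicate block in the fit 93 were called, 82 of them among the 145. Whether arrays of the same number belong together was not settled.

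The 8 calls among precursor genes became 4 with only the 6 arrays, 14 with array weights and 5 to 7 when 1 of the 6 arrays was left out, with 5 without GFP replicate 2. Against Ac the 15 calls became 5 with only those groups, 37 without Sens replicate 1, 62 without either Ase+m3 array alone, 75 without both Sens replicate 1 and Ase+m3 replicate 2, 2 for probe sets with no 0, 4 with a mean of at least 5, 924 with array weights, 6 with the replicate block, and 3 to 14 with 1 array of the groups left out. Medians set equal left 10, split evenly, against 9 higher and 6 lower, and quantile normalization gave 7 higher and 8 lower. Against Sens the 10 calls became 1 with only those groups, 17 without both Sens replicate 1 and Ase+m3 replicate 2, 6 with quantile normalization and 6 with medians set equal, 5 of these 6 higher in both, 3 for probe sets with no 0, 4 with a mean of at least 5, 657 with array weights, 5 with the gene length trend removed, and 3 to 12 with 1 array of the groups left out. Only 5 of the 10 were among the 12 called without Sens replicate 1. Why these counts moved was not tested. Without either Ase+m3 array, that group holds 1 array and adds nothing to the shared spread, so the 2 settings gave the same counts. Ase+m3 replicate 2 had the lowest median Spearman correlation to the other arrays (0.89). The array weights were 0.349, 2.955 and 0.2332 on Ac+Sens replicates 1 to 3, and 2.907, 0.3386 and 1.273 on GFP replicates 1 to 3.

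The difference of ac was 0.0715 with the length trend removed, and between -0.2614 (without Ac+Sens replicate 3) and 0.1957 (without Ac+Sens replicate 1) with 1 of the 6 arrays left out. With array weights, Nepl21 turned to -0.15 and msl-2 to -0.10.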
